A study of Mus musculus with 43 samples.

Results

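The sgRNAs described here target 26 enzymes of glutamine, glutamate, arginine, aspartate and proline metabolism. They were taken from the metabolic library by gene symbol and come to 130 of the 10640 sgRNAs and 26 of the 2078 genes. The rule itself used no measured value, but it was chosen with earlier results of these data known. Each of the 26 genes had 5 sgRNAs. The symbols Got1l1, Aspg and Pycr3 were also looked for and matched no row, while the older symbol Pycrl did. The library also held 250 nontargeting sgRNAs, which serve as controls.

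All T cells were CD90.1+ OT-I CD8+ T cells from Cas9 knock-in mice, whose T cell receptor recognizes ovalbumin. CD90.1 is the reporter of the lentiviral library vector, so every sorted cell should carry an sgRNA. The 3 T0 libraries, made from an aliquot kept before transfer, were compared with cells sorted 7 days later from mice that bore orthotopic KPC_OVA tumours, a mouse pancreatic ductal adenocarcinoma (PDAC) line expressing ovalbumin, and received IgG or anti-PD-1 from the day of transfer. Per the methods, the recipients were Rosa26-Cas9 mice. Age and sex were not given in the labels. IgG and anti-PD-1 each had 3 libraries in primary tumour, lung, spleen, draining lymph nodes and nondraining lymph nodes. Liver had 2 libraries under IgG and 1 under anti-PD-1, and peritoneal metastases had 2 and 3. Of 43 samples, 2 carried no values after the authors' quality control. Peritoneal metastases anti-PD-1 replicate 2 was titled as such but carried spleen as its tissue label.

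Glutamine is the main nitrogen donor of proliferating T cells. Mitochondria turn it into glutamate, from which glutamate dehydrogenase and the transaminases feed the tricarboxylic acid cycle and make aspartate and alanine. Aspartate and glutamine nitrogen are then built into purines and pyrimidines. Arginine, ornithine and proline are linked to glutamate through pyrroline-5-carboxylate, and arginine is also the substrate of arginases and nitric oxide synthases. In a pooled knockout screen, an sgRNA whose target is needed for T cell survival, division or entry to an organ becomes rarer than at T0, and these steps cannot be told apart from its abundance alone.

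For the counted sgRNAs the processed table gives a number per gene and no sequence. Among the 26 genes, Aspa was the one with sgRNA sequences in the study's supplementary lists, from the smaller library used for a follow-up screen, whose genes the study chose from the screen described here with tools other than limma. Aspa encodes aspartoacylase, which releases aspartate from N-acetylaspartate. These 3 sequences are shown to locate the cuts in the gene. Whether they are the same as any of the 5 counted Aspa sgRNAs is not given in the sources used here. The last 3 letters in capitals are the genomic bases next to the protospacer, the PAM that Cas9 reads.
Aspa sgRNA 1: attcattaccaatccaagggCGG
Aspa sgRNA 2: atacttggcaatggaacgagTGG
Aspa sgRNA 3: agtgcaacccatgttagaagTGG
In the mouse genome GRCm38.p6 each protospacer had 1 perfect match next to an NGG. Aspa sgRNA 1 lies at chr11:73324322-73324341 on the minus strand, in exon 1 of 6. Aspa sgRNA 2 lies at chr11:73319802-73319821 on the plus strand, in exon 3. Aspa sgRNA 3 lies at chr11:73322143-73322162 on the plus strand, in exon 2. All 3 protospacers lie wholly within coding sequence of the RefSeq transcript.

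The value of a gene in a library, called its level below, is the mean over its 5 sgRNAs of log2(signal + 1) minus the mean of the nontargeting sgRNAs of the same library. A change is a difference of levels between a group and T0, so 0 means that the sgRNAs behaved like nontargeting ones. At T0 the levels of the 26 genes lay between -0.23 and 0.76 (median 0.24), within the range of all genes (-1.36 to 1.23, median 0.22). In the T0 libraries 0% of the 130 sgRNAs lay at the lowest value shared between libraries, which stands for an undetected sgRNA. After transfer it was 45.4% to 91.5% in lymph nodes (12 libraries), 0.769% to 36.2% in lung (6 libraries) and 0% to 19.2% in the remaining organs (20 libraries). The lymph nodes were therefore fitted apart, and the averages below cover the 10 groups of the 5 other organs (26 libraries). The nontargeting sgRNAs themselves had an SD of 1.08 to 1.11 at T0 and of 2.62 to 3.68 in lung on the log2 scale.

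Limma called none of the 26 genes in the mean of these 10 groups against T0. By limma 0 of 26 were depleted and 0 of 26 enriched (Benjamini-Hochberg adjustment over 2078 genes), and 0 had an unadjusted p under 0.05. Of all genes tested, 16.1% were depleted in this comparison and 0.192% enriched. The 26 changes ran from -0.63 for Glul to 0.49 for Nos1, whereas those of all genes ran from -6.63 to 2.98. The median change of the 26 genes was -0.05 and that of all genes -0.14, and 61.5% against 62.8% of all genes lay below 0. The share of genes below T0 was thus near that of the library as a whole. Single values of 3 genes did pass a test in 1 group or organ, namely those of Asl, Nos3 and Cps1 described below.

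Gls2, the liver-type glutaminase, which releases ammonia from glutamine to give glutamate, was not called. Its change in the mean of the 10 groups was 0.08 (95% interval -0.79 to 0.96), with group changes from -0.12 in lung IgG to 0.54 in liver anti-PD-1. Levels of Gls2 were 0.54, 0.49 and 0.46 at T0 and ran from -0.84 to 1.68 (median 0.69) in the 26 other libraries. Of these, 10 were below and 14 above the T0 range, so the libraries fell on both sides.

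The other enzymes described at the glutamine and glutamate step did not pass the test either. Glul, glutamine synthetase, makes glutamine from glutamate and ammonia. Its change was -0.63 (standard error 0.474, 95% interval -1.60 to 0.33, adjusted p = 0.775 by limma), the lowest of the 26 genes. Levels of Glul were 0.05, 0.37 and 0.31 at T0, and 17 of 26 libraries lay below that range and 5 above. In primary tumour they were -0.18, 0.01 and 0.45 under IgG and 0.03, -0.46 and -0.74 under anti-PD-1. In lung the Glul levels were 1.53, -0.25 and -0.38 under IgG and -0.56, -0.81 and 0.99 under anti-PD-1. Lung libraries therefore lay on both sides of T0 under either treatment. In liver Glul stood at -0.66 and 0.13 under IgG and at -2.19 under anti-PD-1. In peritoneal metastases its levels were 0.19 and -0.16 under IgG and -0.09, -0.64 and -0.85 under anti-PD-1. In spleen they were 0.43, 0.59 and 0.31 under IgG and 0.25, -3.0 and -1.02 under anti-PD-1. The lowest Glul values thus came from single libraries of liver and spleen under anti-PD-1. In the lowest, spleen anti-PD-1 replicate 2, 19.2% of the 130 sgRNAs lay at the lowest value and Glul sgRNAs 3, 4 and 5 had signals of 1.1, 0.513 and 1.11, and the part of such losses in it was not tested. Of its 5 sgRNAs, numbers 1, 3 and 5 had changes of -1.53, -0.85 and -1.12 and numbers 2 and 4 had 0.28 and 0.07. Glud1, glutamate dehydrogenase, which turns glutamate into 2-oxoglutarate, had a change of -0.07, with group values from -1.54 in liver anti-PD-1 to 1.38 in liver IgG.

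No transaminase passed the test. Got1 and Got2 are the cytosolic and mitochondrial aspartate aminotransferases of the malate-aspartate shuttle. Their changes were -0.03 (95% interval -1.09 to 1.04) and -0.29 (-1.47 to 0.89). Got2 was lowest in lung anti-PD-1, at -1.47, and highest in the liver anti-PD-1 library, at 0.68. Gpt and Gpt2, the alanine aminotransferases of cytosol and mitochondria, had changes of 0.00 and -0.24. The interval of Gpt, -1.31 to 1.32, was the widest of the group, and includes changes as large as that of Glul.

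Asparagine synthetase, Asns, uses glutamine nitrogen to make asparagine from aspartate, and its change was -0.15 (95% interval -1.14 to 0.84). Asns sgRNA 1 alone stood low, at -1.67, where 2 of 250 nontargeting sgRNAs were lower, and the other 4 lay between -0.32 and 0.75. Aspa had a change of 0.06, with group values from -1.51 in lung IgG to 0.95 in primary tumour anti-PD-1. The lung IgG value of Aspa had an adjusted p of 0.106 by limma. It stands beside 36.2%, 15.4% and 0.769% of the 130 sgRNAs at the lowest value in the lung IgG libraries 1, 2 and 3, and the part of such losses in it was not tested.

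The 10 genes of the urea cycle, arginine breakdown and nitric oxide synthesis had a median change of 0.11, and 4 of them lay below 0. Cps1 and Otc, which make carbamoyl phosphate and citrulline in the liver urea cycle, had changes of 0.00 and 0.32. Nags, which makes the activator of Cps1, had -0.21. Ass1 and Asl, which rebuild arginine from citrulline and aspartate, had 0.25 and -0.01. The cytosolic and mitochondrial arginases Arg1 and Arg2 had 0.22 and -0.50. The neuronal, inducible and endothelial nitric oxide synthases Nos1, Nos2 and Nos3 had 0.49, -0.04 and 0.35. None of the 10 passed the test in the mean of the groups (adjusted p from 0.922 upwards by limma).

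Arg2 is an arginase isoform found in T cells. Its levels at T0 were 0.12, 0.20 and 0.40, and 17 of 26 libraries were below and 5 above. In primary tumour its levels were 0.15, -0.06 and 0.46 under IgG and -0.44, -0.08 and -0.61 under anti-PD-1. In lung Arg2 stood at 2.31, 0.25 and -0.16 under IgG and at 0.65, -1.07 and 0.23 under anti-PD-1. Both treatments had libraries above and below T0 in lung. In liver Arg2 had levels of -0.34 and -2.08 under IgG and of -0.90 under anti-PD-1. In peritoneal metastases they were -1.10 and 0.99 under IgG and 0.20, -0.39 and -0.33 under anti-PD-1. In spleen Arg2 stood at 0.63, -0.05 and -0.18 under IgG and at -0.21, -1.18 and -1.33 under anti-PD-1. The 95% interval of its change was -1.45 to 0.46. Arg2 sgRNA 1 alone, at -1.90, was below all 250 nontargeting sgRNAs, and the other 4 ran from -0.96 to 0.72.
Nos1 had the highest change of the 26 genes, 0.49 (standard error 0.448, 95% interval -0.42 to 1.40, adjusted p = 0.922 by limma). Its levels at T0 were 0.67, 0.51 and 0.50. In primary tumour they were 0.27, 0.76 and 1.22 under IgG and 1.29, 1.10 and 0.62 under anti-PD-1. In lung the Nos1 levels were 2.32, -0.44 and 0.91 under IgG and 2.29, 2.11 and 1.30 under anti-PD-1. The 3 lung anti-PD-1 libraries were all above T0, whereas those of lung IgG lay on both sides. In liver Nos1 stood at 1.47 and 1.17 under IgG and at 0.33 under anti-PD-1. In peritoneal metastases its levels were 0.18 and 1.56 under IgG and 1.53, 1.91 and 0.56 under anti-PD-1. In spleen they were 0.56, 0.25 and 0.74 under IgG and 1.39, 2.46 and 0.71 under anti-PD-1. Over all organs 18 of 26 libraries lay above the T0 range of Nos1 and 5 below. Its 5 sgRNAs had changes of 0.81, 0.43, 0.56, 0.69 and -0.05.

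The 7 genes described of ornithine and proline metabolism had a median change of -0.24, and 6 of them lay below 0. Aldh18a1 makes pyrroline-5-carboxylate from glutamate, the reductases Pycr1 and Pycrl turn it into proline, and the oxidases Prodh and Prodh2 with Aldh4a1 run the way back to glutamate. Oat links ornithine to the same intermediate. The changes were -0.61 for Oat, -0.54 for Aldh18a1, -0.28 for Pycr1, -0.24 for Pycrl, -0.06 for Prodh, -0.12 for Prodh2 and 0.18 for Aldh4a1. None passed the test (adjusted p from 0.66 upwards by limma). The 95% intervals were -1.48 to 0.92 for Pycr1 and -1.07 to 0.58 for Pycrl.
Oat was below T0 on average in 10 of 10 groups. It is shown in full for its large mean change, and all groups share the same T0 libraries, so the shared direction adds no support. The share of all genes with such a direction was not computed. Levels of Oat at T0 were 0.17, 0.36 and 0.44. In primary tumour they were -0.45, -0.01 and -0.16 under IgG and -0.69, 0.63 and -0.28 under anti-PD-1. In lung the Oat levels were -2.16, -1.30 and 0.20 under IgG and 0.93, -0.49 and -0.08 under anti-PD-1. The lung IgG libraries with the lowest levels were those with the most sgRNAs at the lowest value (36.2% and 15.4%), and the part of this in the value was not tested. In liver Oat stood at -0.61 and 0.19 under IgG and at -0.97 under anti-PD-1. In peritoneal metastases its levels were -0.22 and 0.06 under IgG and -0.31, -0.48 and 0.17 under anti-PD-1. In spleen they were 0.23, 0.22 and -0.27 under IgG and -0.41, 0.14 and -0.14 under anti-PD-1. In all, 20 of 26 libraries were below the T0 range of Oat and 2 above, and the change had a 95% interval of -1.44 to 0.23. The 5 sgRNAs of Oat had changes of -0.79, -1.41, -0.10, -0.58 and -0.15.
Aldh18a1 had 19 of 26 libraries below and 7 above its T0 levels of 0.21, 0.44 and 0.35. In primary tumour the levels were -0.96, -0.30 and -0.50 under IgG and 0.20, -0.37 and -1.12 under anti-PD-1. In lung Aldh18a1 stood at -0.10, -0.32 and 0.51 under IgG and at 1.72, -0.73 and -0.51 under anti-PD-1. In primary tumour all 6 libraries were below T0, and in lung they lay on both sides. In liver its levels were -0.66 and -1.01 under IgG and 0.46 under anti-PD-1. In peritoneal metastases they were 0.59 and 0.01 under IgG and 0.98, -1.45 and -0.71 under anti-PD-1. In spleen Aldh18a1 stood at -0.10, -2.28 and -0.22 under IgG and at 0.78, -0.93 and 0.50 under anti-PD-1. The lowest library, spleen IgG replicate 2, had companions close to the nontargeting level. Its 5 sgRNAs were split, with sgRNAs 4 and 5 at -1.67 and -0.92, sgRNA 2 at -0.38 and sgRNAs 1 and 3 at 0.14 and 0.15.

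At the level of single sgRNAs, 6 of the 130 (4.62%) had a mean change below the 5th percentile of the nontargeting sgRNAs (-1.29), against 19.6% of all gene-targeting sgRNAs and 5.2% of the nontargeting ones themselves. The 6 targeted Aldh18a1, Arg2, Asns, Glul, Got2 and Oat, with 1 sgRNA each, so no gene had a pair of sgRNAs that low. Oat alone, or 3.85% of the 26 genes, had all 5 sgRNAs below 0, compared with 19.3% of all genes. The SD of the changes was 0.641 over the 130 sgRNAs, 0.688 over the 250 nontargeting sgRNAs and 1.67 over all gene-targeting sgRNAs.

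Asl and Nos3 were each called in a single group against T0. Over the 10 group comparisons together, 1 of the 260 values of the 26 genes was depleted and 1 enriched by limma, against 14.1% and 0.419% of all gene values. Of the 260 values, 149 lay below 0. Asl, argininosuccinate lyase, was depleted in peritoneal metastases anti-PD-1, where 15.3% of all genes were. Its levels there were -1.45, -3.35 and -0.01, against 0.28, 0.58 and 0.41 at T0. All 3 libraries were below T0, with replicate 2 far below the others. The log2 change was -2.03 (standard error 0.615, adjusted p = 0.0165 by limma), and without replicate 2, the library with the conflicting tissue label, it was -1.16 (adjusted p = 0.372 by limma). The Asl call was also lost without T0 replicate 2 (-1.95) or 3 (-2.04). In peritoneal metastases anti-PD-1 replicate 2, 12.3% of the 130 sgRNAs lay at the lowest value, compared with 2.31% and 0% in replicates 1 and 3 of that group. Under IgG the same organ had Asl levels of 0.77 and 1.41, above T0.
Nos3 was enriched in lung IgG, where 1.68% of all genes were. Its levels there were 2.06, 1.46 and 0.68, against -0.14, 0.00 and -0.28 at T0, so the groups did not overlap. Asl and Nos3 were singled out by their calls on these libraries, so such gaps from T0 add no support. The share of all genes with such gaps was not computed. The change of Nos3 in lung IgG was 1.54 (standard error 0.540, adjusted p = 0.0428 by limma). The call of Nos3 was lost without any 1 of the T0 libraries (1.47 to 1.61), without lung IgG replicate 1 (1.21) or 2 (1.51), and without primary tumour IgG replicate 1 or any primary tumour anti-PD-1 library (1.54 each). Without centring the change of Nos3 in lung IgG turned to -0.39, a shift shared by all genes in that comparison. The nontargeting means of the uncentred log2 values were 5.6, 6.37 and 6.24 in lung IgG and 8.23, 8.17 and 7.6 at T0. In lung anti-PD-1 the Nos3 levels were -0.80, -0.54 and 0.63. They thus lay on both sides of T0, unlike those of lung IgG. In primary tumour the Nos3 levels were 0.08, -0.73 and 0.37 under IgG and 0.20, -0.48 and -0.11 under anti-PD-1. In liver Nos3 stood at 0.24 and 0.84 under IgG and at 0.06 under anti-PD-1. In peritoneal metastases its levels were 0.35 and 0.93 under IgG and -0.63, 0.35 and -0.02 under anti-PD-1. Both peritoneal IgG libraries and all liver libraries were above T0. In spleen Nos3 stood at 0.09, -0.29 and -0.66 under IgG and at -0.63, 0.62 and 0.92 under anti-PD-1. Over all organs 16 of 26 libraries lay above the T0 range of Nos3 and 8 below, and its change in the mean of the 10 groups had a 95% interval of -0.47 to 1.18. The 5 sgRNAs of Nos3 had changes of 0.01, 0.41, 0.01, 0.60 and 0.73.

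None of the 26 genes differed between the 5 organs by limma's moderated F-test (0 of 26, lowest adjusted p = 0.628, and 1 gene had an unadjusted p under 0.05), against 0.433% of all genes, and 7.8% of all genes had an unadjusted p under 0.05. Per the methods, the authors had already adjusted the deposited values for batch effects between organs. That step can reduce differences of this kind, so the test says nothing about organ differences before it. The 1 gene was Aspa. With both treatments averaged, as in this test, it changed by -0.84 in lung and by 0.54 in primary tumour against T0.

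Anti-PD-1 was compared with IgG in the same fit. In the mean of the 5 organs, 0 of the 26 genes differed by limma, against 1.35% of all genes, and 3 had an unadjusted p under 0.05, as did 15.8% of all genes. These 3 were Glul, Pycr1 and Glud1, each lower under anti-PD-1. Glul differed by -1.02 (standard error 0.322, 95% interval -1.67 to -0.36, adjusted p = 0.111 by limma), Pycr1 by -1.14 (0.400, -1.95 to -0.32, adjusted p = 0.15) and Glud1 by -0.77 (0.334, -1.45 to -0.09, adjusted p = 0.249). Pycr1 reduces pyrroline-5-carboxylate to proline in mitochondria. Without spleen anti-PD-1 replicate 1 Glul was called (-1.17, adjusted p = 0.0369 by limma), and without lung anti-PD-1 replicate 2 Pycr1 was called (-1.43, adjusted p = 0.0128 by limma). Glul and Pycr1 were each not called in 40 of 41 fits without 1 library and in 9 of 9 other settings. Without the single liver anti-PD-1 library Glul differed by -0.79. For Glud1, leaving out that library brought the difference to -0.23, and the median over sgRNAs brought it to -0.13. In peritoneal metastases the mean level of Glud1 was higher under anti-PD-1 (0.46) than under IgG (0.09). By organ, the mean level of Glul was 0.09 under IgG and -0.39 under anti-PD-1 in primary tumour, 0.30 and -0.13 in lung, -0.27 and -2.19 in liver, 0.02 and -0.52 in peritoneal metastases, and 0.44 and -1.26 in spleen. All 5 organs thus had the lower mean under anti-PD-1, with an SD of 1.64 in spleen anti-PD-1 and a single library in liver.
Pycr1 levels at T0 were 0.29, -0.11 and 0.12. In primary tumour they were -0.01, 0.15 and 0.42 under IgG and 0.68, -0.15 and -2.03 under anti-PD-1. In lung Pycr1 stood at -0.16, -1.36 and 1.44 under IgG and at -2.80, 1.62 and -2.64 under anti-PD-1. The treatments overlapped in both organs, and the 3 lowest Pycr1 levels of all 26 libraries came from anti-PD-1. In liver its levels were 0.08 and 0.75 under IgG and -0.99 under anti-PD-1. In peritoneal metastases they were 0.55 and 1.09 under IgG and -0.67, -0.18 and -0.57 under anti-PD-1. In spleen Pycr1 stood at 0.39, 0.55 and 0.65 under IgG and at 0.00, -0.38 and -1.16 under anti-PD-1. In liver, peritoneal metastases and spleen the treatments did not overlap, with 1 library under anti-PD-1 in liver. The mean of Pycr1 was lower under anti-PD-1 in all 5 organs, with an SD of 2.51 in lung anti-PD-1. Glul and Pycr1 were singled out by their mean over the organs, so a shared direction adds no support. The share of all genes with such a direction or such gaps was not computed.
Within lung, Cps1 was the one member called, lower under anti-PD-1. Its levels in lung were 0.69, 1.99 and 1.10 under IgG and -0.59, -0.51 and -1.40 under anti-PD-1, while T0 stood at 0.15, 0.09 and 0.25. The lung groups lay on opposite sides of T0 and did not overlap. Cps1 was singled out by the test on these libraries, so the gap adds no support. The share of all genes with such a gap was not computed. The Cps1 difference was -2.09 (standard error 0.542, adjusted p = 0.0261 by limma), and 3.56% of all genes differed in lung. It was not called without lung IgG replicate 2 (-1.72, adjusted p = 0.0759 by limma) or lung anti-PD-1 replicate 3 (-1.80, adjusted p = 0.0689 by limma). Cps1 sgRNA 5 had signals of 852, 664 and 388 in lung IgG and of 215, 117 and 0 in lung anti-PD-1, against 148, 191 and 153 at T0. In the same libraries sgRNA 4 had 825, 410 and 171 and then 89.1, 212 and 47.4. Cps1 sgRNA 1 had 1.1, 128 and 98.7 under IgG and 1.1, 153 and 152 under anti-PD-1, so the sgRNAs of this gene were split.

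Genes that take up these amino acids or use them were listed beside the 26. Both lists were chosen with earlier results of these data known, so their contrast with the 26 is not a test. A list of 17 genes of steps that use glutamine, glutamate, aspartate, arginine or ornithine had a median log2 change of -1.77. By limma 8 of them were depleted, against 0 of the 26 and 16.1% of all genes. Depletion was largest for Ppat, which transfers glutamine nitrogen in the committed step of purine synthesis (-5.99, standard error 0.465, adjusted p = 2.13e-12 by limma). The purine enzymes Adsl (-5.17), Pfas (-4.80), Adss (-4.56) and Gmps (-4.55) were depleted as well. The Pfas call was lost without the lowest 10% of sgRNAs (-2.17, adjusted p = 0.328 by limma). Gfpt1 of the hexosamine pathway changed by -5.20, the CTP synthase Ctps by -2.72, and Gclc, which joins glutamate to cysteine for glutathione, by -1.90. The Gclc call was lost with centring on the mean of all sgRNAs (-1.24, adjusted p = 0.0517 by limma), the median over sgRNAs (-2.01, adjusted p = 0.218) and all libraries in 1 fit (-1.90, adjusted p = 0.0654). Their paralogues Gfpt2 (0.36), Ctps2 (0.33) and Adssl1 (0.15) were not called. Cad, which starts pyrimidine synthesis from glutamine and aspartate, changed by -1.77 (adjusted p = 0.0717 by limma). Cad was not called in 5 of 9 other settings and 36 of 41 fits without 1 library. It was called in the rest, for example with a pseudocount of 10 (-1.55, adjusted p = 0.00535 by limma). Of 17 carriers and malate dehydrogenases, 3 were depleted, a share near that of all genes (16.1%). These were Slc3a2 (-3.20) and Slc7a5 (-2.98), the subunits of a large neutral amino acid exchanger, and Slc38a1 (-1.46), a glutamine importer, whose call was lost without any 1 of the T0 libraries (-1.48 to -1.44), with centring on the mean of all sgRNAs (-0.81), with the median over sgRNAs (-1.43), without the lowest 10% of sgRNAs (-1.24) and with all libraries in 1 fit (-1.46). The glutamine carrier Slc1a5 changed by -0.38 and the aspartate-glutamate carriers Slc25a12 and Slc25a13 by -0.19 and -0.24. The mitochondrial glutamate carrier Slc25a22 had -1.12 (adjusted p = 0.0511 by limma). Slc25a22 was not called in 6 of 9 other settings and 32 of 41 fits without 1 library. It was called in the rest, for example with a pseudocount of 10 (-0.94, adjusted p = 0.0279 by limma).

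In the lymph nodes limma called 0 of the 26 genes in any of the 4 group comparisons with T0, and 0% of all gene values there (6 of 104 values of the 26 genes and 8.64% of all gene values had an unadjusted p under 0.05, lowest adjusted p of the 26 genes 0.302). Few sgRNAs carried each library. Between 11 and 71 of the 130 sgRNAs lay above the lowest value, and the gene with the single highest signal changed from library to library, for example Otc at 7580 in nondraining lymph nodes anti-PD-1 replicate 1 and Aspa at 6560 in draining lymph nodes anti-PD-1 replicate 1. At this representation neither a loss nor a gain of these sgRNAs was detectable in lymph nodes.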

How the data were processed

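The sgRNA cassette was amplified from genomic DNA of sorted CD90.1+ cells and sequenced. Per the labels and methods, the authors ran MAGeCK to count reads, scaled libraries by the 250 nontargeting sgRNAs and applied ComBat against batch effects between organs. The deposited signal per sgRNA and library is therefore no longer a whole number, the read depth is unknown, and no counting interval or count test was used. Such a correction can alter values of an organ against T0 and between organs. ComBat's settings, whether T0 was included, and a genome build for the library are not given in the sources used here. Summed signal per library was 1788300 to 4228882.

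The level of a gene was its mean log2(signal + 1) over 5 sgRNAs minus that of the nontargeting sgRNAs in the library. For 29 libraries outside lymph nodes a linear model was fitted by limma 3.58.1 in R 4.3.3 with a mean for each group (prior variance 0.59 on 15.5 degrees of freedom). The 15 libraries of lymph nodes and T0 had a fit of their own. Genes were called at an adjusted p of 0.05 or lower (Benjamini-Hochberg, 2078 genes). Lowest values were called shared at a relative tolerance of 1e-09. Fold changes are on the log2(signal + 1) scale, which understates changes of low sgRNAs. The labels do not say which libraries came from the same animals, so p-values measure the spread between these libraries.

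The members, gene lists and design were chosen with earlier results of these data known. The rule matched 28 genes (140 sgRNAs), of which 2 are not reported here. The other 26 members are named with their change. Values in every library are given for the 6 members with the largest absolute change, and members called in another comparison are named with it. Shares of all genes were not computed for the counts of libraries below or above the T0 range. Gene symbols were looked up in RefSeq's table for GRCm38.p6 (26 of 26 matched). The fit was tested on simulated data.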

Additional observations from a re-analysis of the deposited data

Results flagged for a closer look

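Among the 26 genes, Cps1 was the 1 gene whose change against T0 differed between treatments within an organ by the test of that difference. In lung, 3.56% of all genes were called by the same test, so 1 of 26 genes is near that share. The p-values were adjusted within the comparison of each organ, not over the 5 organs together. In lung, anti-PD-1 minus IgG was -2.09 on the log2 scale (adjusted p = 0.0261 by limma), with changes of 1.09 under IgG and -1.0 under anti-PD-1 and 3 of 3 libraries of each group on its side of T0. In the mean of the 5 organs the difference for Cps1 was -0.39 (adjusted p = 0.524 by limma). Of the 130 sgRNAs, 36.2%, 15.4% and 0.769% lay at the lowest value in lung IgG libraries 1 to 3 and 10%, 20.8% and 6.15% in lung anti-PD-1 libraries 1 to 3, and the part of this in the difference was not tested.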

How the results depend on the processing

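In the mean of the 10 groups, 0 depleted members became 4 with the values as deposited (Aldh18a1, Arg2, Glul and Oat). In that setting 671 of all 2078 genes were depleted, against 334 in the main one. The 1 depleted and 1 enriched group values (Asl and Nos3) became 1 and 0 with a pseudocount of 10, 8 and 0 with the nontargeting median, 0 and 4 with the mean of all sgRNAs, 33 and 0 as deposited, 2 and 0 with the median over sgRNAs (Aspa in lung IgG and Pycr1 in lung anti-PD-1), and 0 and 0 without the lowest 10% of sgRNAs or with all libraries in 1 fit. The Asl call was thus lost with the mean of all sgRNAs (-1.31, adjusted p = 0.157 by limma), the median over sgRNAs (-1.62, adjusted p = 0.117), without the lowest 10% (-2.03, adjusted p = 0.0581) and in 1 fit (-2.03, adjusted p = 0.159), and Nos3 in lung IgG was 0.35 with the nontargeting median. No member sgRNA was among that lowest 10%. As deposited, 1 member (Aspa) differed between organs and all 104 values of the members were called in lymph nodes. Shares of all gene values were not computed for these counts of group, organ and lymph node calls in the other settings. Leaving out 1 library gave 0 to 3 depleted and 0 to 2 enriched group values, and 0 to 1 differing between treatments. Leaving out lung, chosen after seeing the data, gave 2 depleted (Asl, and Glul in liver anti-PD-1) and 0 enriched group values. The lung difference of Cps1 was not called with the nontargeting median (-1.72, adjusted p = 0.0937 by limma), as deposited (-1.53, adjusted p = 0.187) or with all libraries in 1 fit (-2.09, adjusted p = 0.414). The settings on centring move all genes of a library by a constant, and small changes turned sign with them. With the mean of all sgRNAs these were Aldh18a1 0.12, Arg2 0.16, Asl 0.64, Asns 0.50, Glud1 0.59, Glul 0.02, Got1 0.63, Got2 0.36, Gpt2 0.41, Nags 0.44, Nos2 0.62, Oat 0.05, Prodh 0.59, Prodh2 0.54, Pycr1 0.37 and Pycrl 0.41. As deposited they were Aldh4a1 -0.82, Arg1 -0.78, Aspa -0.93, Ass1 -0.75, Cps1 -1.0, Gls2 -0.91, Gpt -0.99, Nos1 -0.51, Nos3 -0.65 (lung IgG -0.39) and Otc -0.68. With the nontargeting median they were Aldh4a1 -0.23, Arg1 -0.19, Aspa -0.35, Ass1 -0.16, Cps1 -0.41, Gls2 -0.33, Gpt -0.41, Nos3 -0.06 and Otc -0.10. With the median over sgRNAs they were Aldh4a1 -0.23, Aspa -0.15, Ass1 -0.30, Cps1 -0.13, Gls2 -0.17 and Got1 0.18. With a pseudocount of 10 they were Cps1 -0.05, Gls2 -0.02, Gpt -0.01 and Prodh 0.01, and without lung Cps1 -0.01, Got1 0.05, Gpt -0.03, Nos2 0.05 and Prodh 0.05. With 1 library left out, the values that changed sign ranged from -0.13 to 0.07 (Asl), -0.02 to 0.15 (Aspa), -0.06 to 0.06 (Cps1), -0.13 to 0.10 (Glud1), -0.15 to 0.06 (Got1), -0.12 to 0.16 (Gpt), -0.21 to 0.07 (Nos2) and -0.16 to 0.04 (Prodh). The replicate block changed no call and gave Asl -2.03 in peritoneal metastases anti-PD-1 (adjusted p = 0.0108 by limma) and Cps1 0.00 in the mean. Libraries of different groups with the same number correlated at r = -0.356 to 0.269 in their deviations from group means, with 27 of 84 pairs over 0.1, against 15 of 168 pairs with different numbers, and 19 of 24 libraries correlated best with one of their own number. The cause of these correlations was not tested. Sequencing was in separate runs per the methods, but no source used here ties the numbers to runs, so they were not taken to pair samples. Lowest values of an sgRNA were shared across organs within a number. For Asl sgRNA 1 they were 0.672, 1.47 and 0 in nondraining lymph nodes IgG replicates 1, 2 and 3, and 1.47 in lung anti-PD-1 replicate 2. Whether the batches given to ComBat were the organs or these numbers was not tested. Read depth is unknown, and sgRNAs at the lowest value limit lung and lymph nodes most.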
